A study of Homo sapiens with 12 samples.

Results

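Transcripts of 9 genes that encode feedback inhibitors of ERK signaling were followed in HEK293T cells: the MAP kinase phosphatases DUSP1, DUSP4, DUSP5, DUSP6 and DUSP7, the Sprouty proteins SPRY2 and SPRY4, and the Spred proteins SPRED1 and SPRED2. The genes were taken by symbol from the 58735 genes of the count table, and all 9 were found. They were selected on a measured value, since DUSP5 was higher with CEP than with DMSO in these same libraries, so the values of that comparison are given as a description without a test. HEK293T is a human embryonic kidney line that carries the SV40 large T antigen, and the measurement was RNA-Seq of polyadenylated RNA in 4 groups of 3 independent replicates. The DMSO group received vehicle. Cells of the CEP group were exposed for 1 h to 25 µM of AHL-Pu-1, a cysteine-reactive clickable electrophilic purine. Cells of the 4SU group were grown with 4-thiouridine, a uridine analog that enters newly made RNA and lets UV light link that RNA to proteins, at 100 µM for 16 h, and those of the CEP+4SU group were given both compounds. The sample labels describe UV crosslinking in the same words for all 12 samples and give the CEP dose in mM, where the series design gives µM. All samples are of a single cell line, so nothing here bears on other cells.

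In the ERK pathway, growth factor receptors activate RAS, which starts a chain of kinases from RAF through MEK to ERK. Active ERK carries phosphate on a threonine and a tyrosine, and dual-specificity phosphatases (DUSPs) remove both. DUSP5 works in the nucleus and DUSP6 and DUSP7 in the cytoplasm, all on ERK, whereas DUSP1 and DUSP4 are nuclear enzymes that also act on the stress-activated kinases JNK and p38. Sprouty and Spred proteins act further up, at the level of RAS and RAF. Many of these genes are themselves transcribed in response to ERK activity, which makes their mRNAs a common readout of the pathway, and DUSP1 is also an immediate early gene of stress responses.

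The phosphatases share a catalytic loop in which a histidine codon is followed by the codon of the cysteine that attacks phosphate and, after 5 further residues, by an arginine codon. DUSP4 also has such a loop, and its sequence is not reported here. The loops of DUSP1, DUSP5, DUSP6 and DUSP7 are shown because they carry the feature that makes these proteins phosphatases and set DUSP5 beside its relatives. Each has 24 bases of coding sequence from GRCh38, read 5′ to 3′ on the strand of the gene, with the cysteine codon in capitals.
DUSP5: cacTGTgaggctgggatctcccgt
DUSP1: cacTGCcaggcaggcatttcccgg
DUSP6: catTGCttggctggcattagccgc
DUSP7: cacTGCctggcaggcatcagccgc
The DUSP5 loop lies in exon 4 of 4, on the plus strand at chr10:110510055-110510078, and its cysteine is codon 263. Those of the other genes are on the minus strand, for DUSP1 in exon 4 of 4 at chr5:172769074-172769097 (cysteine codon 258), for DUSP6 in exon 3 of 3 at chr12:89349503-89349526 (codon 293) and for DUSP7 in exon 3 of 3 at chr3:52051064-52051087 (codon 331). DUSP1 shares 18 of the 24 bases with DUSP5, DUSP7 shares 16 and DUSP6 shares 15, and of these 4 genes DUSP5 alone writes the cysteine as TGT. Outside the 9 genes, DUSP8 and DUSP16 also have TGT, and each shares 20 of the 24 bases with DUSP5. DUSP2, DUSP9 and DUSP10 have TGC and share 18, 17 and 19. RNA-Seq does not measure whether a protein was modified by CEP.

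The 12 libraries held 16569114 to 24644734 counts on genes, and mitochondrial genes took 0.967% to 1.65% of them. The cells were checked with markers of HEK293T and of other cells. All 7 HEK293T markers were detected, with a summed level of 158 to 172 FPKM (fragment counts scaled for gene length and library size). Markers of blood, hepatocytes and endothelium summed to at most 0.309 FPKM, with CD3E at 0 counts in every library. Of the fibroblast and melanoma pairs, DCN and MLANA stayed at or below 0.304 FPKM, while COL1A1 was present at 2.89 to 4.22 FPKM and PMEL at 1.15 to 2.73 FPKM. Because whole cultures were measured, fewer expressing cells and less RNA per cell cannot be told apart.

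Per gene length, DUSP1 was the most abundant of the 9 transcripts. Its level averaged 16.2 FPKM over the 12 libraries (range 14.2 to 19.8), above 81.6% of the 17729 genes that passed the low-count filter. DUSP7 followed at 6.89 FPKM, SPRY2 at 5.47, SPRED2 at 5.36, DUSP5 at 2.50 and SPRED1 at 2.05 FPKM. DUSP4 averaged 0.644 FPKM, DUSP6 0.183 FPKM and SPRY4 0.0521 FPKM, so that DUSP6, a gene widely used as an ERK readout, had only 5 to 31 counts in a library. SPRY4 had 2 to 10 counts and was the 1 gene of the 9 that did not pass the filter, which leaves 8 in the fits.

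**Figure D1:**
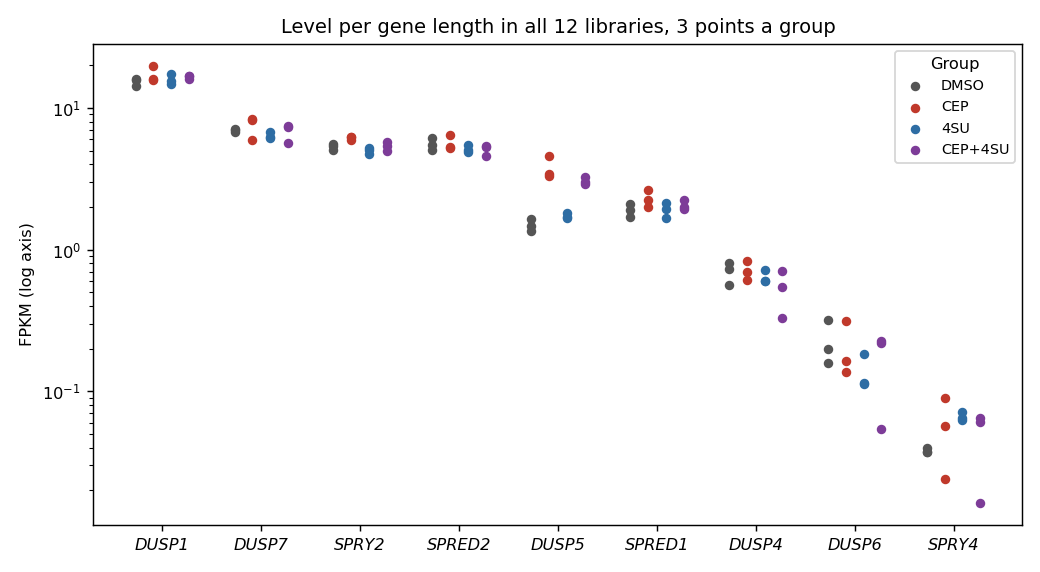
Level of each gene in FPKM, on a log axis, in each of the 12 libraries, with points colored by group and genes ordered by their mean over all libraries. DUSP5 lies below SPRED1 in DMSO and above it in every library treated with CEP, and DUSP1 is the highest gene in every library.

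Among the DMSO libraries, neighbors in this order did not overlap in FPKM except SPRED2 and SPRY2, at means of 5.57 and 5.34 FPKM. SPRED2 was above SPRY2 in 5 of the 12 libraries. DUSP5 and SPRED1 also traded places: SPRED1 was 1.28 times DUSP5 in the DMSO means and was above it in 5 of the 12 libraries, all without CEP. DUSP5 had the widest range of the 7 genes with at least 50 counts in every library, 1.35 to 4.60 FPKM, a ratio of 3.41 between the highest and the lowest library. For DUSP1, DUSP7, SPRY2, SPRED1 and SPRED2 this ratio was 1.32 to 1.58.

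DUSP5 (ENSG00000138166) spans positions 110497838 to 110511544 of chromosome 10 on the plus strand. Its counts were 99, 78 and 86 in DMSO, 164, 152 and 256 in CEP, 84, 80 and 84 in 4SU, and 148, 159 and 170 in CEP+4SU. Scaled to TMM-normalized library sizes (CPM), these were 4.36, 3.84 and 3.57 CPM in DMSO and 8.73, 8.95 and 12.1 CPM in CEP. In 4SU they were 4.45, 4.72 and 4.38 CPM, and in CEP+4SU 7.95, 7.62 and 8.54 CPM. All 6 libraries with CEP were therefore above all 6 without it, and the highest value came from replicate 3 of the CEP group. The share of all tested genes with such a separation was not counted. DUSP5 was chosen on the CEP and DMSO libraries, which are part of it.

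**Figure D2:**
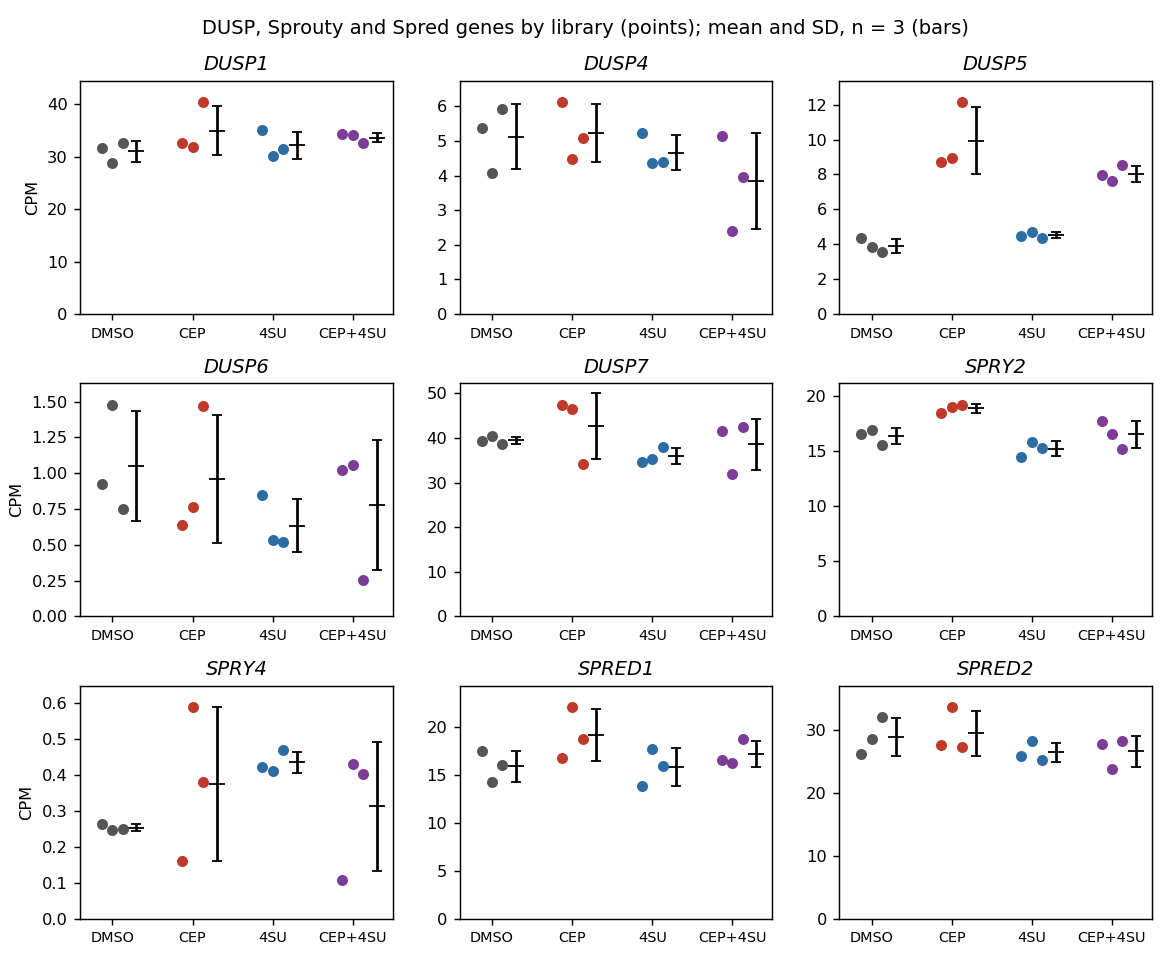
Normalized counts (CPM) of each of the 9 genes in every library, with each axis starting at 0, points for the 3 replicates of a group and bars for the mean and SD. DUSP5 separates the libraries with CEP (7.62 to 12.1 CPM) from those without (3.57 to 4.72 CPM), and no other panel shows such a gap. DUSP5 was chosen on the CEP and DMSO libraries, and the share of all genes with such a gap was not counted.

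The effect of CEP was tested in the cells that also received 4SU, since these 6 libraries are not part of CEP against DMSO. Earlier results of these data were known when the genes were chosen. The test is therefore not shown to be independent of that choice. The DUSP5 level averaged 8.04 ± 0.465 CPM in CEP+4SU and 4.51 ± 0.178 CPM in 4SU (SD, n = 3 each), a fold of 1.78 with a 95% interval of 1.38 to 2.30. On the log2 scale the difference was 0.83 (SE 0.175). The 2 groups did not overlap, as was true in the same direction of 7.58% of all tested genes. Its unadjusted p was 0.000141, which ranked 12 among the 17729 genes, but after Benjamini-Hochberg adjustment over all genes p was 0.208 in edgeR's quasi-likelihood test and the threshold of 0.05 was not passed. An exact permutation test of this single gene gave p = 0.1 (two-sided), the smallest that 3 libraries against 3 allow.

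The adjusted p of DUSP5 ranged from 0.052 to 0.301 over 12 other settings, among them 0.0609 with DESeq2, and from 0.272 to 0.999 when a library was left out. The log2 difference itself lay between 0.57 and 0.91 in all of these fits.

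In the comparison by which the genes were chosen, CEP against DMSO, DUSP5 averaged 9.94 ± 1.91 against 3.92 ± 0.401 CPM (SD, n = 3 each), a fold of 2.54, and the groups did not overlap, as was true in that direction of 13.5% of all tested genes. The log2 difference was 1.34, and without CEP replicate 3 it was 1.17. Cells with both compounds, against the same DMSO libraries, had a DUSP5 level 2.05 times as high. Both comparisons use the DMSO libraries that chose the gene and are given without a test, and the difference between the CEP effects with and without 4SU was not tested for the same reason.

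The 4SU comparisons of DUSP5 differed in direction. The 4SU libraries were all above the DMSO libraries, as was true of 7.58% of all tested genes, with a log2 difference of 0.20 (SE 0.182). In the presence of CEP the order was the opposite, with all CEP+4SU libraries below all CEP libraries, as was true of 6.05% of all tested genes, and a log2 difference of -0.31 (SE 0.167). Without CEP replicate 3 the latter was -0.14. These comparisons reuse the DMSO and the CEP libraries on which DUSP5 was chosen, the high CEP values among them, so for DUSP5 they are descriptions without a test.

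No gene of the set passed the threshold in any of the 3 tested comparisons. In CEP+4SU against 4SU, edgeR called 0 of 8, beside 8 of all 17729 genes (0.0451%). In 4SU against DMSO and in CEP+4SU against CEP it called 0 of the 7 genes other than DUSP5 each time, beside 0.00564% of all genes. Each of these comparisons shares 3 libraries with CEP against DMSO. DESeq2 and limma also called none of them. At an unadjusted p under 0.05 the counts were 1 of 8 (DUSP5), 0 of 7 and 0 of 7, in the order given, against 7.89%, 6.50% and 8.96% of all genes.

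**Figure D3:**
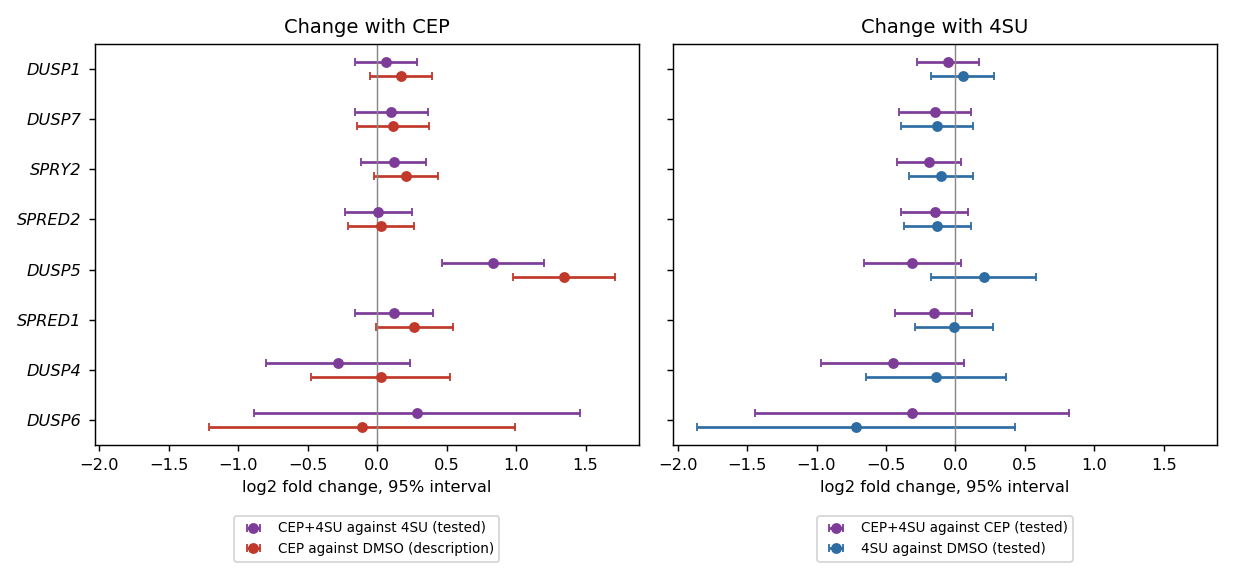
Log2 fold changes of the 8 tested genes with 95% intervals (bars), on the left for CEP with and without 4SU and on the right for 4SU with and without CEP. On the left the DUSP5 interval is 0.46 to 1.20 in the tested comparison, CEP+4SU against 4SU. Its interval in CEP against DMSO is a description, since DUSP5 was chosen on that comparison. The intervals of the other genes on the left include 0, as do all intervals on the right, where the values of DUSP5 are descriptions.

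The other nuclear phosphatases did not separate the groups in the way DUSP5 did. DUSP1 was measured at 31.8, 28.8 and 32.6 CPM in DMSO, 32.6, 31.9 and 40.4 CPM in CEP, 35.1, 30.1 and 31.4 CPM in 4SU, and 34.3, 34.1 and 32.6 CPM in CEP+4SU. Its highest value, like that of DUSP5, came from CEP replicate 3. CEP+4SU and 4SU overlapped, at a fold of 1.05 in CEP+4SU (95% interval 0.896 to 1.22, adjusted p = 0.872 with edgeR). CEP+4SU and DMSO did not overlap for DUSP1, at a mean fold of 1.08, as was true in that direction of 14.1% of all genes. DUSP4 was 4.09 to 5.93 CPM in DMSO, 4.48 to 6.12 CPM in CEP, 4.36 to 5.24 CPM in 4SU and 2.40 to 5.16 CPM in CEP+4SU. Its fold in CEP+4SU against 4SU was 0.82 (95% interval 0.573 to 1.17, adjusted p = 0.741 with edgeR). It was the 1 gene of the 8 with a fold below 1 in this comparison, apart from SPRED2, whose sign changed with the setting.

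The cytoplasmic phosphatases were DUSP7 and DUSP6. DUSP7, in CPM, was 39.4, 40.4 and 38.7 in DMSO, 47.5, 46.6 and 34.1 in CEP, 34.7, 35.3 and 37.96 in 4SU, and 41.5, 32.0 and 42.4 in CEP+4SU. CEP replicate 3, the highest library for DUSP1 and DUSP5, was the lowest of its group for DUSP7. All 4SU libraries were below all DMSO libraries, as was true in that direction of 10.3% of all genes, with a log2 difference of -0.13 (SE 0.124, adjusted p = 0.867 with edgeR). The DUSP7 fold in CEP+4SU against 4SU was 1.07 (95% interval 0.896 to 1.29). DUSP6 was found at 18 to 30 counts in DMSO, 12 to 31 in CEP, 9 to 16 in 4SU and 5 to 22 in CEP+4SU. At this depth its fold in CEP+4SU against 4SU had a 95% interval of 0.54 to 2.75, which does not exclude a fold of 1.78, that of DUSP5.

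Of the Sprouty genes, SPRY2 was 16.5, 16.9 and 15.6 CPM in DMSO, 18.4, 19.0 and 19.2 CPM in CEP, 14.5, 15.9 and 15.3 CPM in 4SU, and 17.7, 16.6 and 15.2 CPM in CEP+4SU. The CEP libraries were above all others for this gene, and the share of all tested genes with this combined pattern was not counted. Against DMSO the SPRY2 fold was 1.15, given as a description, and the 2 groups did not overlap, as was true in that direction of 13.5% of all genes. With 4SU present the groups overlapped, and the fold in CEP+4SU against 4SU was 1.09 (95% interval 0.923 to 1.28, adjusted p = 0.756 with edgeR). CEP+4SU was below CEP in all libraries, as was true of 6.05% of all genes, with a log2 difference of -0.19 (SE 0.11, adjusted p = 0.643 with edgeR), in a comparison that reuses the CEP libraries. SPRY4 was close to its detection limit, with 5 to 6 counts in each DMSO library, 3 to 10 in CEP, 7 to 9 in 4SU and 2 to 9 in CEP+4SU, and no fold is given for it.

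The Spred genes overlapped between CEP+4SU and 4SU. SPRED1 lay between 13.9 and 22.1 CPM over all libraries, with group means of 15.9 ± 1.64 CPM in DMSO, 19.2 ± 2.69 CPM in CEP, 15.8 ± 1.94 CPM in 4SU and 17.2 ± 1.34 CPM in CEP+4SU (SD, n = 3 each). SPRED2 lay between 23.8 and 33.6 CPM. Between CEP+4SU and 4SU the SPRED1 fold was 1.09 (95% interval 0.893 to 1.32) and the SPRED2 fold 1.01 (95% interval 0.85 to 1.19), with edgeR adjusted p of 0.796 and 0.986. SPRED2 was so near to no difference that its sign turned in 10 of 12 other settings.

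Over the 8 tested genes, the median log2 difference was 0.11 in CEP+4SU against 4SU, with 7 of 8 above 0 (SPRED2, at 0.01, fell below 0 under other scalings), and 0.102 without DUSP5. Over all tested genes it was 0.00307, with 50.6% above 0. In 4SU against DMSO the median of the 8 was -0.118 with 2 above 0 (SPRED1, at -0.01, was above 0 under other scalings). In CEP+4SU against CEP it was -0.175 with all 8 below 0. Over all genes these medians were -0.00725 and -0.000211, with 48.2% and 49.9% above 0. Both comparisons reuse libraries on which DUSP5 was chosen, and without DUSP5 the medians were -0.132 and -0.158. DUSP1 and DUSP6 moved above 0 in CEP+4SU against CEP, at 0.06 and 0.14, without CEP replicate 3. Summed over the 9 genes, the level was 138.6 to 145.5 CPM in DMSO, 158.6 to 168 CPM in CEP, 135 to 137.1 CPM in 4SU and 134.3 to 152 CPM in CEP+4SU. DUSP5 made up 2.76% of this sum in DMSO, 6.16% in CEP, 3.32% in 4SU and 5.53% in CEP+4SU. The sums include DUSP5, which was chosen on the CEP and DMSO libraries, so sums and shares are descriptions.

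Across the 12 libraries the 8 genes varied together only in part. Over their 28 pairs the correlation of log2 CPM (Pearson) had a median of 0.244 and ran from -0.37 to 0.681. The highest value joined DUSP5 and SPRY2, and DUSP5 correlated at 0.629 with SPRED1 and at 0.621 with DUSP1 but at 0.0132 with DUSP6. These libraries share their treatments and depth, and the values are descriptions.

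The genes whose pattern was most like that of DUSP5 were sought among 14902 genes with a mean of at least 1 CPM, by Pearson correlation of log2 CPM over the 12 libraries. The 5 highest were WDR47 (0.951), FOS (0.945), DLG1 (0.934), PLEKHB2 (0.914) and ADM (0.913). These libraries include the CEP and DMSO libraries on which DUSP5 was chosen, and a search of so many genes returns extreme values. The correlations are therefore descriptions. FOS, an immediate early transcription factor of the AP-1 complex, averaged 4.23 CPM in DMSO, 12.3 CPM in CEP, 3.60 CPM in 4SU and 10.5 CPM in CEP+4SU. ADM, which encodes the secreted peptide adrenomedullin, averaged 10.9, 15.5, 9.91 and 14.5 CPM in the same order. DLG1, a scaffold protein of cell junctions, averaged 54.7, 63.2, 55.4 and 63.2 CPM in this order, a smaller fold with CEP than that of FOS. Smaller folds than that of FOS were also found for WDR47, at 29.99, 40.9, 30 and 38.2 CPM, and PLEKHB2, at 130, 145.5, 132 and 147.6 CPM.

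Relatives from the same families were measured for comparison. In CEP+4SU against 4SU, 4SU against DMSO and CEP+4SU against CEP, edgeR called 0 of 8 each time. The shares of all genes called were 0.0451%, 0.00564% and 0.00564%. At an unadjusted p under 0.05 the count was also 0 of 8 each time, beside 7.89%, 6.50% and 8.96% of all genes. The median log2 difference of the relatives in CEP+4SU against 4SU was -0.0987, with 3 of 8 above 0, beside 50.6% of all genes. DUSP9, a phosphatase of ERK in the cytoplasm, was the most abundant of them in CPM, with a mean of 74.0 ± 10.2 CPM in CEP+4SU and 85.9 ± 7.72 CPM in 4SU (SD, n = 3 each), a log2 difference of -0.21. The JNK and p38 phosphatases DUSP10, DUSP16 and DUSP8 differed by -0.33, 0.12 and -0.16 on the log2 scale, and DUSP2, a nuclear phosphatase, by -0.21. SPRY1 differed by -0.03, SPRY3 by 0.27 and SPRED3 by 0.14. Against DMSO, given as a description, DUSP9 differed by -0.35 in CEP and by -0.37 in CEP+4SU, and DUSP2 by -0.68 and -0.28. Of the relatives, 4 of 8 were above 0 in CEP against DMSO and 3 of 8 in CEP+4SU against DMSO. The shares of all genes above 0 were 49.4% and 50%.

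The rest of the pathway was read from 5 lists, in which edgeR called none of the genes in any of the 3 tested comparisons. Of all genes it called 0.0451% in CEP+4SU against 4SU and 0.00564% in each of the other comparisons. In CEP+4SU against 4SU, 4 of 25 genes of the cascade from receptors to ERK had an unadjusted p under 0.05, as did 1 of 11 genes of the JNK and p38 cascade, 0 of 11 ERK-responsive transcription factors, 0 of 14 other ERK target genes and 1 of 6 other feedback inhibitors, beside 7.89% of all genes. In 4SU against DMSO the counts were 3, 0, 1, 1 and 0 in the same order of lists, beside 6.50% of all genes. In CEP+4SU against CEP they were 0, 1, 0, 5 and 0, beside 8.96%. Of the cascade, SOS1, an exchange factor that activates RAS, differed by 0.26 on the log2 scale (SE 0.0891), and BRAF, a kinase that activates MEK, by 0.28 (SE 0.114), and the other genes of the 4, named after their values were seen, were EGFR at 0.28 and PTPN11 at 0.16. Of the JNK and p38 cascade, MAPK12, a p38 kinase, differed by -0.32 and MAP2K6, which activates p38, by 0.22.

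Among the transcription factors, CREB1, which binds cAMP response elements, differed by 0.16 and ELK3, a partner of SRF, by 0.14 on the log2 scale. Of the target genes, VGF, a secreted neuropeptide precursor, differed by 0.57 (SE 0.296) at a mean of only 1.81 CPM in 4SU, and the cytokine gene LIF by 0.37. The feedback inhibitors CBL, a ubiquitin ligase of activated receptors, and ERRFI1, an inhibitor of the EGF receptor, differed by 0.26 and 0.19. All of these had an edgeR adjusted p of 0.619 to 0.666. The list medians were 0.0328 for the cascade, -0.0117 for JNK and p38, 0.0323 for the transcription factors, 0.0932 for the target genes and 0.0919 for the feedback inhibitors.

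**Figure D4:**
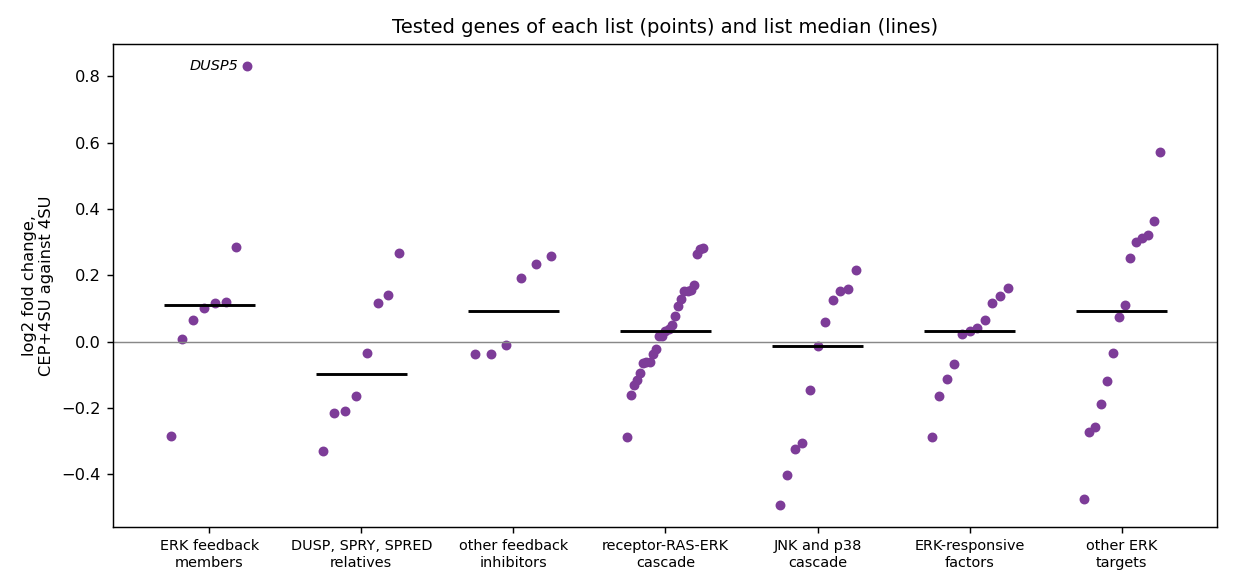
Log2 fold changes in CEP+4SU against 4SU of the tested genes in each list (points, sorted within a list) with the list median (line). DUSP5, at 0.83, lies above every other point, the next being VGF at 0.57. DUSP5 was chosen because it was higher with CEP than with DMSO, so its place here is a description.

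The 5 target genes with an unadjusted p under 0.05 in CEP+4SU against CEP, named after their values were seen, all had lower means in CEP+4SU. CCND1, which encodes cyclin D1, averaged 69.9 ± 2.65 CPM in CEP+4SU and 89.2 ± 5.28 CPM in CEP (SD, n = 3 each), a log2 difference of -0.35 with an adjusted p of 0.16 in edgeR. The ETS factor ETV5 differed by -0.78, the ephrin receptors EPHA2 and EPHA4 by -0.33 and -0.32, and the membrane protein gene EMP1 by -0.77, and none of the 5 passed the threshold. This comparison shares the CEP libraries with the 1 that chose the genes.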

How the data were processed

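Polyadenylated RNA of 12 HEK293T samples was read from a table of gene counts and a table of FPKM. Per the labels and methods, the authors cleaned the reads, aligned them to GRCh38 with HISAT2 2.0.5 and counted them with featureCounts 1.5.0-p3, and the deposited counts are whole numbers without normalization. Whether the counting used strand is not given in the sources used here, and genes that overlap the 9 had at most 5 counts in a library. For the deposited FPKM, the authors divided counts by gene length and by an adjusted library size, 0.981 to 1.03 of the total count. FPKM was used here for levels between genes. A further table, of the authors' group means of FPKM, was not used.

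Counts were filtered with filterByExpr (minimum count 10, minimum total 15), TMM-normalized and fitted in edgeR 4.0.16 (R 4.3.3) by quasi-likelihood with 4 group means, with Benjamini-Hochberg adjustment over 17729 genes. Depth was 16569114 to 24644734 counts, and the common biological coefficient of variation was 0.114. CPM values use TMM library sizes. Standard errors are the log2 fold change divided by the square root of F. Exact permutation tests used log2(CPM + 0.1). Alternatives were DESeq2 1.42.0, limma 3.58.1 on log2(FPKM + 1) and log2(FPKM + 0.1), other scalings and filters, a replicate block, only the 6 libraries compared, removal of trends on length or GC content (the latter chosen after the data were seen), and each library left out. The scripts were tested on simulated counts. Replicates differed by more than counting noise in every group, and not equally. The chi-square over its degrees of freedom for pairs of replicates was 4.17 to 7 in DMSO and 4.07 to 8.05 in 4SU. In CEP it was 12.3 to 17.3. In CEP+4SU it was 18.1 and 14.4 for pairs with replicate 2 and 4.48 for the other pair. The fit gave the 4 groups a shared estimate of the spread.

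The 9 genes and all lists were chosen with earlier results of these data known. The text names all 9, 8 relatives, list genes past the threshold or among the 2 with the smallest unadjusted p in CEP+4SU against 4SU, and the 5 genes most like DUSP5. EGFR, PTPN11, CCND1, ETV5, EPHA2, EPHA4 and EMP1 were named after their values were seen. Loop sequences were read from GENCODE 29 transcripts, in which all 9 genes had the positions of the count table.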

Additional observations from a re-analysis of the deposited data

Results flagged for a closer look

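In 27 of the named genes, each compound was compared in the presence and absence of the other compound. Among these 27, only DUSP5 had groups without overlap in both comparisons of a compound and opposite directions between them. The other genes named in the text were not checked, and the share of all tested genes with this pattern was not counted. Both comparisons reuse libraries on which DUSP5 was chosen. With 4SU all 3 libraries were higher than all 3 DMSO libraries (0.20 on the log2 scale), and with CEP present all 3 were lower than all 3 CEP libraries (-0.31). The second value minus the first was -0.513, and this difference was not tested, since it contains the comparison by which DUSP5 was chosen. CEP replicate 3 held the highest DUSP5 value, and without it the log2 difference with CEP present was -0.14.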

How the results depend on the processing

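None of the 8 tested genes passed the threshold under any of the 12 settings or with any library left out, in any of the 3 tested comparisons, although for DUSP5 only CEP+4SU against 4SU is a test. DUSP5 kept its direction throughout. SPRED2, at 0.00828 on the log2 scale in CEP+4SU against 4SU, became -0.00062 with RLE normalization, -0.0218 with upper quartile normalization, -0.0154 with library size alone, -0.0017 without a low-count filter, -0.0030 with at least 10 counts in every library, -0.0033 with the GC trend removed, -0.0059 with only the 6 libraries of the comparison, -1.35e-05 with DESeq2, and -0.0018 and -0.0025 with limma on FPKM. SPRED1 in 4SU against DMSO became 0.018 with upper quartile normalization, 0.047 with library size alone and 0.00081 with only the 6 libraries. With the GC trend removed, DUSP7 and SPRED1 in CEP against DMSO were 0.30 and 0.0901 in place of 0.11 and 0.27.

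The number of all genes called depended on the setting, and the cause was not tested. For CEP+4SU against 4SU it was 8, and it was 65 without a filter, 5 with the length trend removed, 14 with the GC trend removed, 16 with DESeq2, and 0 and 0 with limma at either pseudocount. For 4SU against DMSO it was 1, and it was 0 with upper quartile normalization, 0 with library size alone, 41 without a filter, 12 with the GC trend removed, 94 with only the 6 libraries, 21 with DESeq2, and 0 and 0 with limma. For CEP+4SU against CEP it was 1, and it was 102 without a filter, 4 with the length trend removed, 179 with the GC trend removed, 75 with DESeq2 and 0 with limma on log2(FPKM + 1).

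With the replicate number as a block, 16, 8 and 5 genes were called in the 3 comparisons in this order. Same-numbered libraries correlated at -0.0469 to 0.141 in their deviations from the group means, over 0.1 in 1 of 18 pairs. The highest value joined CEP and CEP+4SU of replicate 1. Whether same-numbered libraries share a batch was not tested.

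With each library left out, the genes called ranged from 0 to 5, 0 to 0 and 1 to 6 in the 3 comparisons. In CEP+4SU against 4SU, DUSP6 ranged from -0.015 to 0.69 and SPRED2 from -0.054 to 0.075. In 4SU against DMSO, DUSP1 ranged from -0.0085 to 0.11 and SPRED1 from -0.087 to 0.084. In CEP+4SU against CEP, DUSP1 ranged from -0.119 to 0.057 and DUSP6 from -0.62 to 0.14. Depth limits DUSP6 and SPRY4 most, with at most 31 and 10 counts in a library.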
